A study of Homo sapiens with 6 samples.

Results

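The Arp2/3 complex builds branched actin networks, and WASL encodes N-WASP, one of the proteins that switch it on. The 10 genes described here are the 9 that encode human Arp2/3 subunits (ACTR2, ACTR3, ARPC1A, ARPC1B, ARPC2, ARPC3, ARPC4, ARPC5 and ARPC5L) together with WASL. They were found by gene name among the 60666 genes on the primary contigs of the expression table, and all 10 were measured. The cells were hTERT-RPE1-TOShOFD1, a line derived from RPE1, an hTERT-immortalized human retinal pigment epithelial line, by lentiviral infection and selection. It carries a Tet-On cassette, so that doxycycline switches on a short hairpin RNA (shRNA) directed at OFD1. RNA-seq was performed on 3 control samples grown for 72 h without doxycycline and 3 OFD1-depleted samples grown for 72 h with 200 ng/mL doxycycline. All 6 samples carry the hairpin cassette, and no sample received doxycycline without an OFD1 hairpin. Doxycycline itself, other effects of the hairpin and loss of OFD1 thus cannot be told apart. The question put to these genes is whether cells with less OFD1, a centriolar satellite protein that the study examined as a partner of the Arp2/3 complex, held different amounts of the mRNAs for that complex.

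Actin filaments nucleate poorly by themselves. In the Arp2/3 complex, the actin-related proteins Arp2 (ACTR2) and Arp3 (ACTR3) act as the first pair of subunits of a new filament, and the ARPC subunits hold them together and bind the side of an existing filament, from which the daughter filament grows as a branch. The complex is nearly inactive until a nucleation promoting factor such as N-WASP brings it actin monomers and changes its shape. Several positions can be filled by either member of a gene pair: ARPC1A or ARPC1B, ARPC5 or ARPC5L, and ACTR3 or its rarer relative ACTR3B. Such networks drive the leading edge of moving cells, endocytosis and vesicle movement, and also form around centrosomes.

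Values are FPKM, fragments scaled to the length of the transcript and to the fragments mapped in that sample, so levels of different genes can be set side by side. The table holds no read counts. FPKM is relative to the fragments mapped in a sample, so fewer cells expressing a gene and less RNA per cell cannot be told apart. FPKM values do not add up to the same total in each sample. Summed over all genes they came to 408302.3 to 414546.7 in control and 433262.0 to 493509.6 in OFD1-depleted samples. By the spacing of low values, the depth was about 37800000 to 44500000 fragments per sample. This estimate is approximate, because only 21.9% to 24.4% of those values lay within 0.05 of a whole multiple. For a depth fixed in advance the share by chance is 10%. The depth of each sample was instead chosen to give the highest share, so these shares are not directly comparable. Mitochondrially encoded genes made up 8.66% to 13.8% of the summed FPKM in control and 15.6% to 19.3% in OFD1-depleted samples. Of the epithelial markers, KRT8 and KRT18 were expressed in all samples and CDH1 and EPCAM were at or near 0. This list summed to 254.4 to 271.5 FPKM in control samples against 294.1 to 407.4 FPKM after OFD1 depletion, and KRT18 had a log2 fold change of 0.44 (adjusted p = 0.0548 by limma). Of 10 retinal pigment epithelium markers, 2 (MITF and OTX2) reached a mean of 1 FPKM over the 6 samples, and the list summed to 8.08 to 8.96 FPKM in control samples against 9.97 to 13.1 FPKM after OFD1 depletion. Of the highest sum, in OFD1-depleted replicate 2, BEST1 made up 4.33 FPKM, a gene at no more than 0.0475 FPKM in the other 5 samples. Without BEST1 that sample summed to 8.74 FPKM, within the control range. The 6 photoreceptor markers summed to at most 0.0847 FPKM in any sample and the 3 endothelial markers to at most 0.229 FPKM, and of 3 blood markers only CD68 passed 1 FPKM on average. Of the 5 mesenchymal markers, COL1A1 rose and THY1 fell, and the list, nearly all of it VIM, summed to 4242 to 4521 FPKM in control samples against 3638 to 3933 FPKM after OFD1 depletion. The part of these shifts in the results for the actin genes was not tested, except where the values are given without the mitochondrially encoded genes.

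The target of the hairpin was measured first. OFD1 (ENSG00000046651) lies on the X chromosome of GRCh38, from 13734745 to 13769357. It had 3.34, 3.62 and 3.44 FPKM in control replicates 1, 2 and 3 and 0.795, 0.764 and 1.43 FPKM in OFD1-depleted replicates 1, 2 and 3. The 2 groups did not overlap, so the labels and the knockdown matched in each sample, although OFD1-depleted replicate 3 kept the most OFD1 mRNA. Its log2 fold change of -1.75 had a standard error of 0.26 (adjusted p = 0.00085 by limma with Benjamini-Hochberg adjustment over all genes tested).

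ARPC1A was the member whose mRNA fell. Genes were tested where the mean over the 6 samples reached 1 FPKM. Of these 12025 genes, 11.9% were called lower and 5.07% were called higher in OFD1-depleted samples at an adjusted p under 0.05. All 10 members passed that filter, and 1 of 10 was called lower and 0 higher by limma, with 2 of 10 at an unadjusted p under 0.05 (ARPC1A and ARPC5), where 30.6% of all genes tested had one. The share of members called was no larger than that of all genes tested in either direction. The median log2 fold change was 0.08 over the 10 members and 0.15 over the 9 subunit genes, against -0.03 over all genes tested. The change was above 0 in 7 members and below 0 in 3, but ACTR2 and WASL lay below 0 under TPM scaling, ACTR2 also under quantile normalization, and ARPC1B lay above 0 under median-of-ratios scaling. Of all genes tested, 46.28% were above 0. The values of the groups did not overlap for ARPC1A and ARPC2, 2 of 10 members, against 36.1% of all genes tested. The study describes its RNA samples as biological replicates, but the labels do not say whether they were separate cultures, and the tests measure only the spread between these samples.

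**Figure D1:**
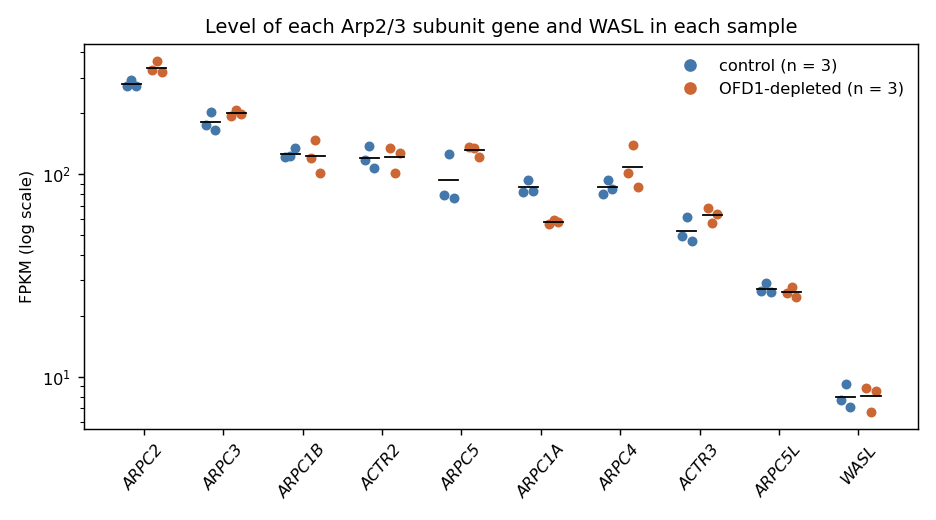
FPKM of the 9 Arp2/3 subunit genes and WASL in each of the 6 samples, on a log axis, ordered by the control mean. Points are samples in the order replicate 1, 2 and 3, and the bars are group means; the ARPC1A points of OFD1-depleted samples (56.6 to 59.3 FPKM) lie below all 3 control points (82.1 to 93.7 FPKM), and those of WASL overlap.

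The members differed far more from each other than between the groups. In control samples the order of mean levels ran from ARPC2 (278.5 FPKM) through ARPC3 (180.5 FPKM), ARPC1B, ACTR2, ARPC5, ARPC1A, ARPC4, ACTR3 (52.7 FPKM) and ARPC5L (27.3 FPKM) to WASL (7.999 FPKM). Neighbors from ARPC1B to ARPC4 in that order overlapped in their sample ranges, while ARPC2, ARPC3, ACTR3, ARPC5L and WASL each stood clear of the genes beside them. In OFD1-depleted samples ARPC5 came next after ARPC3, at 131.3 FPKM, though its range overlapped that of ARPC1B. There ARPC1A stood below ACTR3, at 58.0 FPKM, though the ranges of ARPC1A and ACTR3 overlapped. The mRNAs of the complex were far from equal in level. ARPC2 had 5.29 times the mean FPKM of ACTR3 in control and 5.33 times in OFD1-depleted samples. ACTR3 in turn had 6.59 times the mean FPKM of WASL in control and 7.84 times in OFD1-depleted samples.

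ACTR2 and ACTR3 encode the actin-like pair that starts the branch. ACTR2 (ENSG00000138071, chromosome 2 from 65227788 to 65271253) had 117.0, 138.6 and 107.0 FPKM in control replicates 1 to 3 and 135.0, 101.9 and 126.8 FPKM in OFD1-depleted replicates 1 to 3. The groups overlapped fully, and the highest and the lowest value came from control replicate 2 and OFD1-depleted replicate 2. Its log2 fold change was 0.00 (95% interval -0.33 to 0.34, adjusted p = 0.994 by limma).

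ACTR3 (ENSG00000115091, chromosome 2 from 113890063 to 113962596) had 49.5, 61.6 and 47.0 FPKM in control and 68.1, 57.4 and 63.7 FPKM in OFD1-depleted samples. Every OFD1-depleted value lay above control replicates 1 and 3, and control replicate 2 lay between OFD1-depleted replicates 2 and 3. The log2 fold change was 0.27 (95% interval -0.04 to 0.58, adjusted p = 0.231 by limma). ACTR3 passed the threshold when limma weighted the samples by their quality (0.38, adjusted p = 0.0172). That weighting called 1693 of all genes tested higher, against 610 without it.

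Both Arp3 relatives were low. ACTR3B (ENSG00000133627) had 2.89, 4.03 and 2.90 FPKM in control and 4.37, 4.64 and 4.11 FPKM in OFD1-depleted samples. The groups did not overlap, but control replicate 2 came close to the lowest OFD1-depleted value. ACTR3B had a log2 fold change of 0.42 with a standard error of 0.18 (adjusted p = 0.132 by limma). It passed the threshold by limma under quantile normalization (0.56, adjusted p = 0.0482) and with samples weighted by quality (0.49, adjusted p = 0.0218). These settings called 1093 and 1693 of all genes tested higher, against 610 without them. ACTR3C was listed at 0 in 5 samples and at 0.011 FPKM in OFD1-depleted replicate 3.

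ARPC1A and ARPC1B encode the alternative forms of the WD-repeat subunit, one of the contacts through which nucleation promoting factors act on the complex. ARPC1A (ENSG00000241685, chromosome 7 from 99325898 to 99366262, plus strand) had 82.1, 93.7 and 82.8 FPKM in control replicates 1 to 3. In OFD1-depleted replicates 1 to 3 it had 56.6, 59.3 and 58.0 FPKM. The lowest control value thus stood well above the highest OFD1-depleted value, and the 3 OFD1-depleted values were close together. Control samples averaged 86.2 ± 6.52 FPKM and OFD1-depleted samples 58.0 ± 1.34 FPKM (SD, n = 3 each), which is 67.3% of the control level. ARPC1A fell by 0.57 on the log2 scale (standard error 0.12, 95% interval -0.83 to -0.31, adjusted p = 0.00789 by limma). The two-sided exact permutation test of its FPKM gave p = 0.1, the lowest value open to a comparison of 3 with 3. The fall was called in each of the 19 alternatives run for ARPC1A, with adjusted p by limma from 0.000921 to 0.0371, and with the mitochondrially encoded genes left out of the total, an alternative added after the data were seen, the log2 fold change was -0.63 (adjusted p = 0.00359).

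ARPC1B (ENSG00000130429, chromosome 7 from 99374249 to 99394816, plus strand) starts 7986 bases after the end of ARPC1A. It had 122.1, 122.5 and 134.4 FPKM in control and 120.8, 148.3 and 101.3 FPKM in OFD1-depleted samples. The OFD1-depleted values spread to both sides of the control values, in contrast to the tight values of ARPC1A. The log2 fold change was -0.05 (95% interval -0.38 to 0.29, adjusted p = 0.86 by limma), a direction that turned to 0.01 under median-of-ratios scaling.

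The pair also lies under a readthrough gene. AC004922.1 (ENSG00000284292, chromosome 7 from 99325879 to 99394653, plus strand) spans both genes, and the table does not show how shared fragments were divided among the 3. It was listed at 6.55 FPKM in control replicate 2 and 5.59 FPKM in OFD1-depleted replicate 1 and at no more than 0.062 FPKM in the other 4 samples. These high values came from 1 sample of each group. With AC004922.1 added to ARPC1A, an alternative chosen after the data were seen, the log2 fold change of ARPC1A was -0.56 (adjusted p = 0.0127 by limma). The 3′ end of ARPC1B overlaps PDAP1 on the opposite strand. PDAP1 had 46.5, 49.1 and 47.4 FPKM in control and 41.0, 55.3 and 34.6 FPKM in OFD1-depleted samples. Its OFD1-depleted replicates stood in the same order as those of ARPC1B. That order is not particular to these genes, since the FPKM summed over all genes had it too (444337.0, 493509.6 and 433262.0 in OFD1-depleted replicates 1 to 3).

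The coding sequences of the pairs are alike but differ at short intervals against the read length of 150 bases. ARPC1A and ARPC1B were identical at 70.8% of 1101 aligned coding bases, and their longest identical run was 17 bases. ARPC5 and ARPC5L shared 71.3% of 450 aligned bases with a longest run of 12, and ACTR3 and ACTR3B shared 76.8% of 1254 aligned bases with a longest run of 17. No stretch of 50 bases was common to the canonical transcripts of any of these pairs. The most similar 60 bases found for each pair are shown 5′ to 3′ from GENCODE transcripts on GRCh38, with capitals at the bases that differ within each pair, to show how often a read meets a distinguishing base. The ARPC1A and ARPC1B stretches (both in exon 5, plus strand) lie at chr7:99348860-99348919 and chr7:99389913-99389972 and differ at 8 bases. Those of ARPC5 (exon 3, minus strand, chr1:183630478-183630537) and ARPC5L (exon 5, plus strand, chr9:124875075-124875134) differ at 11 bases. Those of ACTR3 and ACTR3B (both in exon 3, plus strand) lie at chr2:113916946-113917005 and chr7:152800593-152800652 and differ at 8 bases.
ARPC1A: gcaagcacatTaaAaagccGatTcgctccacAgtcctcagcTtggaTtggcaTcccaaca
ARPC1B: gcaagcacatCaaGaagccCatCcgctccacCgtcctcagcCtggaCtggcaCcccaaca
ARPC5: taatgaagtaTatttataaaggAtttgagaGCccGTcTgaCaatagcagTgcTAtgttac
ARPC5L: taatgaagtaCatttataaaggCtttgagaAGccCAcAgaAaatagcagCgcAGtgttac
ACTR3: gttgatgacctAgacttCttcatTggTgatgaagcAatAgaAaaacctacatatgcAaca
ACTR3B: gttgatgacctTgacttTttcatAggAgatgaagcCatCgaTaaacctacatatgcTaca

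ARPC2 and ARPC4 form the core of the complex that grips the mother filament. ARPC2 (ENSG00000163466, chromosome 2 from 218217141 to 218254356), the member with the highest mean level, had 272.0, 292.1 and 271.3 FPKM in control and 328.1, 360.2 and 319.4 FPKM in OFD1-depleted samples. The groups did not overlap, and each OFD1-depleted value was above the highest control value. The means were 278.5 ± 11.8 FPKM and 335.9 ± 21.5 FPKM (SD, n = 3 each), but the log2 fold change of 0.27 (95% interval -0.01 to 0.55) did not pass the test (adjusted p = 0.18 by limma).

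ARPC4 (ENSG00000241553, chromosome 3 from 9792495 to 9807101) had 80.0, 93.8 and 84.8 FPKM in control and 101.9, 138.9 and 86.2 FPKM in OFD1-depleted samples. OFD1-depleted replicate 2 stood far above the rest, and replicate 3 lay among the controls. The log2 fold change was 0.31 (95% interval -0.06 to 0.69, adjusted p = 0.245 by limma), and without OFD1-depleted replicate 2 it was 0.12. The readthrough gene ARPC4-TTLL3 (ENSG00000250151), which shares exons with ARPC4, had 0.836, 0.566 and 0.828 FPKM in control and 1.46, 1.74 and 1.24 FPKM in OFD1-depleted samples. Its control values all lay below 1 FPKM, so it passed the filter on level only through its OFD1-depleted values. The filter thus favored a rise, and the non-overlap of its groups carries no weight. Its log2 fold change of 0.91 (standard error 0.29) missed the threshold (adjusted p = 0.0545 by limma). Adding ARPC4-TTLL3 to ARPC4 left the log2 fold change of ARPC4 at 0.32.

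ARPC3 (ENSG00000111229, chromosome 12 from 110434823 to 110450422, minus strand) encodes a peripheral subunit that bridges Arp3 to the rest of the complex. It had 174.3, 202.5 and 164.8 FPKM in control and 194.4, 206.5 and 197.7 FPKM in OFD1-depleted samples. Control replicate 2 again lay among the OFD1-depleted values, and the log2 fold change was 0.15 (95% interval -0.14 to 0.44, adjusted p = 0.481 by limma). Its processed pseudogene ARPC3P3, identical at 97.8% of 536 aligned bases, was listed at 6.10 to 8.90 FPKM, so a small part of the fragments of ARPC3 is of uncertain origin.

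ARPC5 and ARPC5L encode the alternative forms of the smallest subunit, which links Arp2 to the core. ARPC5 (ENSG00000162704, chromosome 1 from 183620846 to 183635783, minus strand) had 78.7, 125.7 and 76.6 FPKM in control and 136.7, 135.4 and 121.8 FPKM in OFD1-depleted samples. Control replicates 1 and 3 lay far below every OFD1-depleted value, while control replicate 2 lay within the OFD1-depleted range. The means were 93.7 ± 27.8 FPKM and 131.3 ± 8.24 FPKM (SD, n = 3 each), and the log2 fold change of 0.52 (standard error 0.18, 95% interval 0.12 to 0.93) was not called (adjusted p = 0.0737 by limma). Whether ARPC5 passed depended on 1 library and on the model. Without control replicate 2 the log2 fold change was 0.76 (adjusted p = 0.00758 by limma), and with samples weighted by quality it was 0.65 (adjusted p = 0.00471). The weighting called 1693 of all genes tested higher, against 610 without it. The canonical transcript of ARPC5 is 7266 bases long, with 453 coding bases, the longest of the members.

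ARPC5L (ENSG00000136950, chromosome 9 from 124862130 to 124877733) had 26.6, 29.0 and 26.3 FPKM in control and 26.1, 27.9 and 24.8 FPKM in OFD1-depleted samples. The groups overlapped, with a log2 fold change of -0.06 (95% interval -0.32 to 0.21, adjusted p = 0.793 by limma). Its spread within a group was small, in contrast to that of ARPC5 in control samples.

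WASL, the activator, was expressed far below the complex it acts on. WASL (ENSG00000106299, chromosome 7 from 123681943 to 123749003, minus strand) had 7.69, 9.22 and 7.09 FPKM in control and 8.85, 6.75 and 8.54 FPKM in OFD1-depleted samples. The groups overlapped fully, and as for ACTR2 the extremes were control replicate 2 and OFD1-depleted replicate 2. The log2 fold change was 0.01 (95% interval -0.34 to 0.36, adjusted p = 0.984 by limma).

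**Figure D2:**
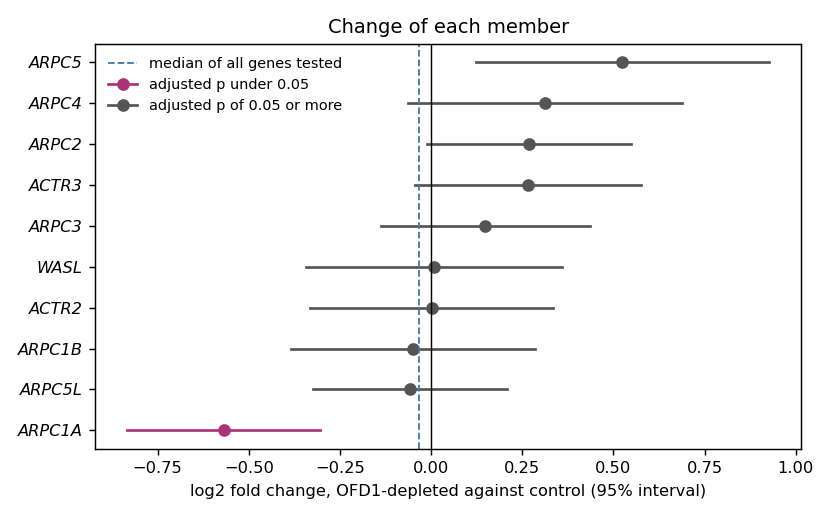
Log2 fold change of each of the 10 members, OFD1-depleted against control (n = 3 each), with the 95% interval of the limma model; the dashed line is the median of all genes tested (-0.03). ARPC1A, at -0.57, is colored as passing an adjusted p of 0.05, and ARPC5, at 0.52, has an interval above 0 that did not pass after adjustment.

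Most members shared a pattern across the control replicates, but they differed across the OFD1-depleted replicates. Control replicate 2 was the highest control sample for 9 of 10 members, ARPC1B being the exception, where 47.5% of all genes tested had their highest control value in that replicate. OFD1-depleted replicate 2 was the highest OFD1-depleted sample for 6 of 10 members (33.6% of all genes tested). That replicate was the lowest OFD1-depleted sample for ACTR2 (101.9 FPKM), ACTR3 (57.4 FPKM) and WASL (6.75 FPKM). For 5 members (ACTR3, ARPC2, ARPC3, ARPC4 and ARPC5) all OFD1-depleted values lay above both control replicates 1 and 3, against 20.8% of all genes tested. That count leaves out control replicate 2, the highest control sample for 9 of 10 members. Relative to its control mean, ARPC5 stood 0.46 higher on the log2 scale in control replicate 2 and 0.42 to 0.58 higher in OFD1-depleted samples. These counts describe the samples and carry no test, since the members share their 6 libraries.

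**Figure D3:**
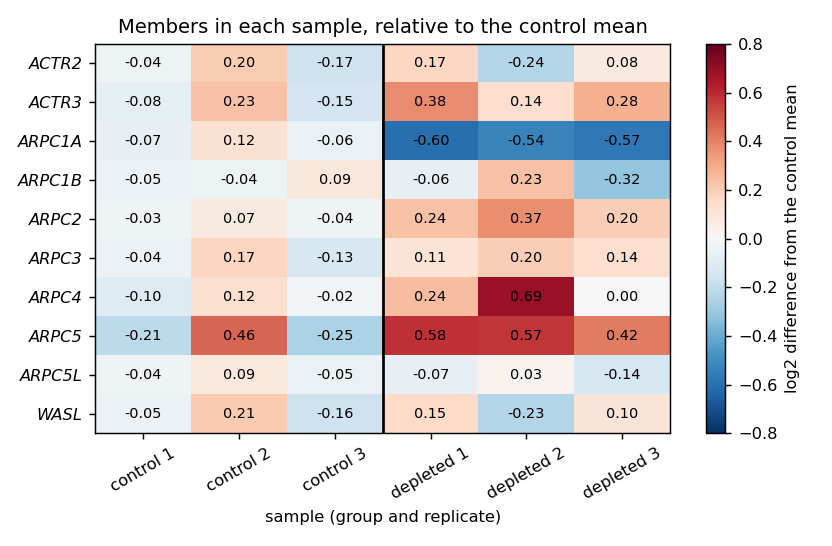
Log2 difference of each member from its control mean in each sample (red above, blue below; rows are genes, columns are samples). The ARPC1A row is blue in all 3 OFD1-depleted samples (-0.60 to -0.54), and the ARPC5 row is red in control replicate 2 and in all 3 OFD1-depleted samples.

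Within the pairs, the share of each alternative subunit was compared between groups, a comparison that leaves out what moves both genes of a pair alike. ARPC1A made up 40.2%, 43.4% and 38.1% of the summed FPKM of ARPC1A and ARPC1B in control and 31.9%, 28.6% and 36.4% in OFD1-depleted samples. The 2 groups did not overlap, and the mean share was lower by 8.26 percentage points (difference -8.26 points, p = 0.1 by the two-sided exact permutation test). Control samples had a summed level of 212.5 ± 7.21 FPKM for the 2 genes and OFD1-depleted samples 181.4 ± 24.4 FPKM (SD, n = 3 each), and these sums overlapped. ARPC5L made up 25.3%, 18.7% and 25.6% of ARPC5 plus ARPC5L in control and 16.02%, 17.1% and 16.9% in OFD1-depleted samples, a difference of -6.54 points (two-sided exact permutation test, p = 0.1). In that pair the FPKM of ARPC5L itself overlapped between groups, as did that of ARPC5. ACTR3B made up 5.53%, 6.14% and 5.81% of ACTR3 plus ACTR3B in control and 6.03%, 7.48% and 6.06% in OFD1-depleted samples. These shares overlapped (difference 0.70 points, two-sided exact permutation test, p = 0.3).

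**Figure D4:**
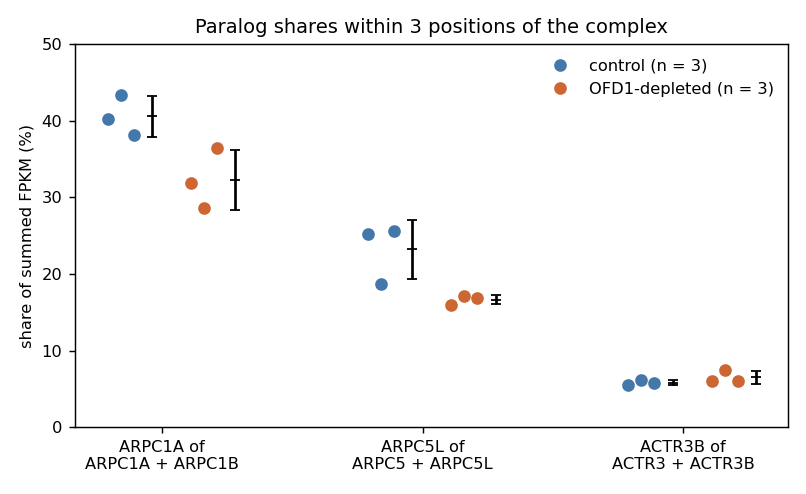
Share of the summed FPKM taken by ARPC1A, ARPC5L and ACTR3B within their pairs (percent, axis from 0), with 1 point per sample and the mean ± SD beside each group (n = 3). The ARPC1A shares are 38.1% to 43.4% in control and 28.6% to 36.4% in OFD1-depleted samples.

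The sum over the 9 subunit genes was 1002, 1159 and 995.2 FPKM in control and 1168, 1236 and 1100 FPKM in OFD1-depleted samples. Control replicate 2 lay among the OFD1-depleted sums, and the means of 1052 ± 92.8 and 1168 ± 68.1 FPKM (SD, n = 3 each) differed by 115.5 FPKM (two-sided exact permutation test, p = 0.2). The FPKM summed over all genes was also higher in OFD1-depleted samples, at 433262.0 to 493509.6 against 408302.3 to 414546.7 in control samples. The part of that shift in the sum of the 9 genes was not tested. As a share of that sum, ARPC1A took 8.08% to 8.32% in control and 4.80% to 5.27% in OFD1-depleted samples. The groups were thus apart in this share as in FPKM. ARPC2 took 25.2% to 27.3% in control and 28.1% to 29.2% in OFD1-depleted samples. The shares of ARPC5 (7.69% to 10.84% against 10.96% to 11.7%) and ARPC5L (2.499% to 2.66% against 2.23% to 2.26%) did not overlap either, and those of the other 5 subunit genes did. In FPKM, ARPC5 and ARPC5L each overlapped between groups. The 9 shares are parts of the same sum, so a move in any of them moves the others, and they are not separate results.

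Promoter sequences were compared for what the members share. RefSeq windows (GRCh38.p14, from 250 bases before to 50 bases after a start site) were found for 9 of 10 members, 12 windows in all. Motifs were searched as exact letters on both strands. The GC box GGGCGG was in 11 of these 12 windows, against a share of 45.0% of all 35116 windows, and each of these 9 members had a match. The windows were rich in G and C. The CCAAT box CCAAT was in 4 of the 12 windows, from 4 members (34.6% of all windows). The ETS-type motif CCGGAAG was also in 4 windows, from 4 members (10.3%). The NRF1-type motif GCGCATGC was in 3 windows of 2 members, ACTR3 and ARPC1A (3.05% of all windows). The YY1-type motif AAGATGGC was in 3 windows, all of ACTR3 (2.89%). Some windows of ACTR3 overlap, as do those of ARPC2, so the same site can count more than once. The count of windows with a GC box includes a single ARPC2 site that lies in both ARPC2 windows. The TATA box TATAAA (11.5%), the E2F-type motif TTTGGCGC (0.652%) and the CArG box (1.29%) matched in no window of a member. No 2 of these motifs overlapped in a member's window, but the NRF1-type motif matched ARPC1A on both strands in overlapping positions. A match describes letters in the window and no measured binding.

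The windows of ARPC1A and ARPC5 are shown 5′ to 3′ on the strand of the gene, because these members had the largest fall and the largest positive log2 fold change. Capitals mark matches to the motifs above on either strand. The ARPC1A window lies at chr7:99325648-99325947 (plus strand) and holds 2 CCAAT boxes, the overlapping NRF1-type matches, an ETS-type match and a GC box. The ARPC5 window lies at chr1:183635734-183636033 (minus strand) and holds a CCAAT box and a GC box.
ARPC1A: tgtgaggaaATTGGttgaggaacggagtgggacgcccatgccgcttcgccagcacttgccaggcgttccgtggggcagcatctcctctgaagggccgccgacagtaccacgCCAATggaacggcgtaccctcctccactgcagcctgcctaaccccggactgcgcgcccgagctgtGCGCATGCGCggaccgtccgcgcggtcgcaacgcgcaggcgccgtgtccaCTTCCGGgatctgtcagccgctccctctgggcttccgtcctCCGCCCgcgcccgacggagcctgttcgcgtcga
ARPC5: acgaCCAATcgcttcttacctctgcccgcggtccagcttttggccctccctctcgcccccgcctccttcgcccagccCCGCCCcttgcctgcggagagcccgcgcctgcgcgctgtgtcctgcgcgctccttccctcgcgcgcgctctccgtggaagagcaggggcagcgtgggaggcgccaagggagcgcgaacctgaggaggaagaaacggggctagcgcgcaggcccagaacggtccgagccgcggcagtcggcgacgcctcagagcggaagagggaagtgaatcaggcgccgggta

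The other genes of branched actin assembly were described from 9 lists of 81 genes, of which 69 passed the filter on level. Of these 69, 7 were called lower and 3 higher, or 10.1% and 4.35%, near the 11.9% and 5.07% of all genes tested, with a median log2 fold change of -0.02. At an unadjusted p under 0.05 there were 20 of 69, or 29.0%, against 30.6% of all genes tested.

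The class I nucleation promoting factors switch on the complex directly, as N-WASP does. Of the 6 tested beside WASL, 0 were called by limma and 0 had an unadjusted p under 0.05. WASF2, which encodes the WAVE2 protein of the cell edge, had 21.9, 22.8 and 22.3 FPKM in control and 22.6, 17.0 and 20.3 FPKM in OFD1-depleted samples (log2 fold change -0.17, adjusted p = 0.449 by limma). The WAVE regulatory complex holds WASF proteins inactive until Rac binds. Of its 6 genes tested, 0 were called by limma, and 2 (ABI2 and CYFIP1, named after their values were seen) had an unadjusted p under 0.05. ABI2 had a log2 fold change of -0.44 (adjusted p = 0.0639 by limma) and CYFIP1 of -0.38 (adjusted p = 0.0893 by limma).

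Of the WASH complex, which activates Arp2/3 on endosomes, 1 of 8 genes was called. WASHC4, a scaffold of that complex, had 12.7, 10.6 and 11.0 FPKM in control and 7.95, 5.33 and 8.53 FPKM in OFD1-depleted samples (log2 fold change -0.67, adjusted p = 0.0274 by limma). That call was lost without control replicate 1, 2 or 3 (adjusted p = 0.107, 0.0608 and 0.0806 by limma). Of the 3 class II factors and branch stabilizers tested, 0 were called by limma and 0 had an unadjusted p under 0.05. CTTN, which encodes cortactin, the class II factor that holds branches in place, averaged 97.2 ± 5.95 FPKM in control against 94.9 ± 9.80 FPKM after OFD1 depletion (SD, n = 3 each), a log2 fold change of -0.04 (adjusted p = 0.877 by limma).

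Of 10 partners and activators of N-WASP tested, 1 was called. WIPF2, which encodes a WIP-family protein that binds and stabilizes N-WASP, had 5.24, 6.03 and 5.68 FPKM in control and 3.39, 2.69 and 2.41 FPKM in OFD1-depleted samples. The groups stood apart, and the log2 fold change of -0.98 had a standard error of 0.17 (adjusted p = 0.00267 by limma). CDC42, the small GTPase that opens N-WASP, had 96.6, 103.8 and 98.4 FPKM in control and 30.4, 103.4 and 108.2 FPKM in OFD1-depleted samples. The low value came from OFD1-depleted replicate 1 alone, and the log2 fold change of -0.51 (adjusted p = 0.399 by limma) was 0.09 without it.

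Of 7 inhibitors and debranching factors tested, 2 were called, both lower. ARPIN, which encodes an inhibitor that competes for the complex, had 2.70, 2.60 and 2.57 FPKM in control and 1.59, 1.54 and 1.43 FPKM in OFD1-depleted samples (log2 fold change -0.75, adjusted p = 0.0219 by limma). Its call was lost without any of control replicates 1, 2 and 3 or OFD1-depleted replicate 3 (adjusted p = 0.104, 0.0608, 0.0804 and 0.0686 by limma). CORO2B, of the coronin family of actin-binding proteins, had 13.9, 14.7 and 14.4 FPKM in control and 8.13, 8.51 and 8.50 FPKM in OFD1-depleted samples (log2 fold change -0.77, adjusted p = 0.00154 by limma). Both had groups that stood well apart with little spread inside each.

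Of 14 nucleators of unbranched filaments tested, 2 were called lower and 1 higher. The formin genes DIAPH3 (27.2 ± 3.60 to 14.7 ± 3.61 FPKM, SD, n = 3 each) and INF2 (26.7 ± 1.62 to 17.3 ± 1.29 FPKM) fell, with log2 fold changes of -0.90 and -0.63 (adjusted p = 0.00557 and 0.00601 by limma). LMOD1, a leiomodin known from smooth muscle, rose from 18.7 ± 0.9003 to 26.4 ± 1.62 FPKM (SD, n = 3 each), a log2 fold change of 0.49 (adjusted p = 0.0177 by limma). The call of LMOD1 was lost without control replicate 1 or 3 or OFD1-depleted replicate 1 (adjusted p = 0.112, 0.0676 and 0.0646 by limma).

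Of 14 genes for actin monomers and the proteins that bind them, 1 fell and 2 rose. TWF1, which encodes the monomer-sequestering protein twinfilin-1, had 44.8, 54.8 and 38.2 FPKM in control and 10.6, 7.95 and 10.7 FPKM in OFD1-depleted samples. This was the largest change among the listed genes, at a log2 fold change of -2.22 (standard error 0.17, adjusted p = 1.8e-05 by limma). ACTA2, smooth muscle alpha-actin, had 236.6, 260.3 and 217.2 FPKM in control and 595.5, 729.6 and 570.0 FPKM in OFD1-depleted samples (log2 fold change 1.40, adjusted p = 0.000104 by limma). CFL2, which encodes the muscle form of the filament-severing protein cofilin, rose from 41.9 ± 8.44 to 61.9 ± 2.12 FPKM (SD, n = 3 each), a log2 fold change of 0.58 (adjusted p = 0.0218 by limma), a call lost without control replicate 1 or 3 or OFD1-depleted replicate 1 or 3 (adjusted p = 0.104, 0.115, 0.0694 and 0.0532 by limma). The cytoplasmic actins, the monomers that the complex assembles, were not called. ACTB averaged 4740 ± 304.2 FPKM in control against 5476 ± 139.1 FPKM after OFD1 depletion (SD, n = 3 each), a log2 fold change of 0.21 (adjusted p = 0.44 by limma), and of -0.06 under quantile normalization. ACTG1 averaged 1786 ± 34.3 and 1750 ± 113.6 FPKM (SD, n = 3 each), a log2 fold change of -0.03 (adjusted p = 0.913 by limma).

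**Figure D5:**
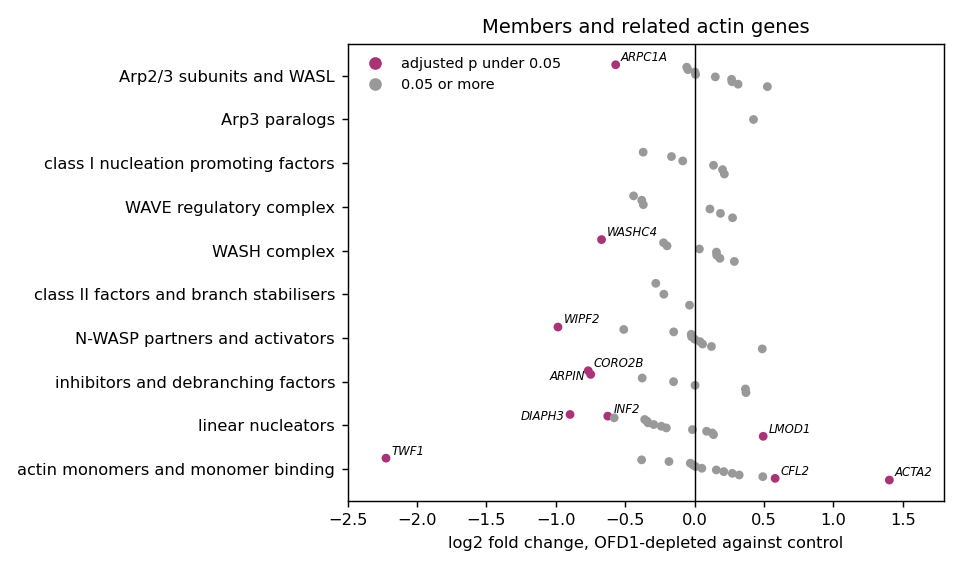
Log2 fold change, OFD1-depleted against control, of the 10 members (top row) and of the 69 tested genes of 9 related lists, 1 point per gene. Points with an adjusted p under 0.05 by limma are colored and named; TWF1 (-2.22) and ACTA2 (1.40) lie farthest out, and the members lie between -0.57 and 0.52.

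Members were left out of the search for similar profiles, which used the root mean square difference of centered log2 values. Of the other genes tested, those nearest to WASL over the 6 values were ABRAXAS2 (0.0216), UBQLN1 (0.0262), TFAM (0.0308), CALD1 (0.0312) and NARS1 (0.0356), where the median gene lay at 0.2728. For the mean profile of the 9 subunit genes they were MDH1 (0.029), AIMP2 (0.0318), TOMM34 (0.0344), DNAJC8 (0.0347) and TPD52L2 (0.0348), against a median of 0.2502. These likenesses rest on 6 samples from the same libraries and describe them only.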

How the data were processed

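RNA-seq was analysed in 3 control and 3 OFD1-depleted samples, grouped by the labels. The authors aligned paired-end 150-base reads with HISAT2 (version 2.0.5, per the submitters' processing notes) to GRCh38, by the methods with Ensembl release 94, and deposited 1 FPKM value per gene and sample from StringTie. Neither the version of StringTie nor the use of strand is given in the sources used here. The labels name both a TruSeq and a directional NEBNext kit, and their extraction text speaks of retinas although the samples are a cell line. Divided fragments of overlapping genes and near-identical copies could therefore shift values between them. Of 67130 genes listed, 28501 had a value above 0 somewhere. No read counts were given and no 2 samples were identical.

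The members and lists were chosen with earlier results of these data known. Genes averaging 1 FPKM or more were fitted with limma 3.58.1 (R 4.3.3) with a variance trend on log2(FPKM + 0.1), two-sided, with Benjamini-Hochberg adjustment over 12025 genes. Fold changes on this scale understate changes of low genes. Shares and sums were compared by exact permutation, where 3 against 3 cannot go below p = 0.1. Named genes were OFD1, the members, ACTR3B, ACTR3C and ARPC4-TTLL3. Up to 4 called genes with the smallest p per list were added, and 5 actin genes whatever their p (ACTB, ACTG1, CTTN, WASF2 and CDC42). The 5 profiles nearest to WASL and to the subunit mean were also named, with members left out of that search. AC004922.1, PDAP1, ARPC3P3 and the marker genes with values were named after their values were seen. Gene pairs were aligned from GENCODE version 44 with Biopython 1.88, and start-site windows came from RefSeq on GRCh38.p14.

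The settings changed in turn were the pseudocount (1 or 0.01), the filter (none, or 5 FPKM on average), the scaling (TPM, quantile normalization or median-of-ratios), the model (limma without trend, with array weights or with the replicate block), protein-coding genes alone, each sample left out, and sums with overlapping or paralogous genes. The sums with AC004922.1 and the total without mitochondrially encoded genes were chosen after seeing the data.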

Additional observations from a re-analysis of the deposited data

How the results depend on the processing

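Over 24 alternative settings, 438 of 486 log2 fold changes of 27 named genes kept their direction and their side of the threshold. Of 162 counts of calls, 128 stayed within 1.5 times the value given. All 23 differences in paralog share kept their direction, but their exact test cannot reach 0.05. ARPC1A was called lower in each alternative, and no other member was called lower in any. The share of higher calls moved with the scaling. Against 1429 genes called lower and 610 higher, TPM scaling, under which the median log2 fold change over all genes moved by -0.15, gave 1988 and 268, quantile normalization 1311 and 1093, and median-of-ratios scaling 1298 and 853. Without a filter 1083 genes were called (823 lower, 260 higher), and array weights called 3956 (2263 lower, 1693 higher). Leaving out 1 sample gave 1111 to 2818 calls, with 867 to 1741 lower and 244 to 1077 higher.

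Array weights called 3 members, 2 of them higher, ACTR3 (0.38) and ARPC5 (0.65), and 23 related genes (12 lower, 11 higher). Leaving out 1 sample gave 1 to 2 members and 6 to 13 related genes, the fewest without control replicate 1 or 3. ARPC5 ranged from 0.40 to 0.76 when 1 sample was left out and passed without control replicate 2. The deviations of same-numbered samples correlated at 0.0579, 0.0481 and 0.011, and those of samples with different numbers at -0.0799 to 0.0503 (mean -0.0192). Low correlations over all genes do not exclude that same-numbered samples shared a culture, and the labels do not say. With the replicate block 2 members were called, ARPC5 (0.52, adjusted p = 0.0191 by limma) being added, and 1534 genes were called lower and 762 higher.

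Some uncalled log2 fold changes changed sign, most of them near 0 but also those of CDC42 (-0.511) and ACTB (0.21). Median-of-ratios scaling gave ARPC1B 0.006, ACTG1 0.024 and CTTN 0.019. TPM scaling gave ACTR2 -0.145 and WASL -0.138, with 12 related genes lower and 1 higher. Quantile normalization gave ACTR2 -0.035 and ACTB -0.062, with 6 related genes higher. Without the mitochondrially encoded genes ACTR2 was -0.057 and WASL -0.051. Leaving out 1 sample moved ACTR2 from -0.081 to 0.122, WASL from -0.075 to 0.127, ARPC1B from -0.19 to 0.085, ACTG1 from -0.083 to 0.006, CTTN from -0.119 to 0.02 and CDC42 from -0.826 to 0.087. The cause of these shifts was not tested. WASHC4, ARPIN, LMOD1 and CFL2 lost their call in some alternatives, among them samples left out, and DIAPH3 without a filter. The smallest change that 3 samples a group can call depends on the spread of each gene, and the lack of read counts keeps depth out of these tests.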
